A study of Mus musculus with 9 samples.

Results

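Enteroendocrine cells are the hormone-secreting cells scattered through the intestinal epithelium. The genes described here are 7 transcription factors that drive or maintain their differentiation (Neurog3, Neurod1, Pax4, Pax6, Isl1, Nkx2-2 and Insm1) and the granin genes Chga and Chgb. The 9 genes were chosen by name, among 18193 genes measured, and among the probe sets annotated with a gene's symbol alone the brightest over the 9 arrays of the series stands for it. Each array holds RNA of intestinal epithelial cells of mouse pups on postnatal day 0, released by EDTA from small intestine and proximal colon, and each of the 3 genotypes has 3 arrays. Rescue pups had the epithelial knockout of Tfr1, the transferrin receptor, and 1 allele of Tfr1 with the R654A change placed at the ROSA26 locus, a change known to weaken the binding of transferrin. Knockout pups (Tfr1 IEC-KO) had the epithelial knockout alone. Control pups were Tfr1 fl/fl, called wildtype in the labels. None of the pups was treated. The sources used here give neither the Cre line behind the knockout, nor the sex of the pups, nor how many pups an array stands for, so p-values measure the spread between arrays, which may be technical.

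In the intestine, Neurog3 is the factor that commits a progenitor to the endocrine fate, and it is expressed for a short time in few cells. It switches on Neurod1, Insm1, Pax4 and Nkx2-2, while Isl1 and Pax6 act later, in cells that already make hormones. Chga and Chgb encode chromogranins, acidic proteins that fill the dense-core granules in which peptide hormones are stored, and they are the usual markers of differentiated endocrine cells. All of these genes also act in the islets of the pancreas, and several act in neurons.

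RefSeq promoter windows (build GRCm38.p6) matched 7 of the 9 members. The sequences of Chgb, Chga and Neurod1 are shown because these 3 genes read higher in every knockout array than in every control array and lower in every rescue array than in every knockout array, as described below. Each run is the 250 bases before the transcription start, 5′ to 3′ on the gene's strand. Capitals in the granin promoters mark TGACGT, the core of the cyclic AMP response element, on either strand, and capitals in the Neurod1 promoter mark CANNTG, the E-box bound by basic helix-loop-helix factors such as Neurog3.
Chgb, chr2:132781392-132781641, plus strand: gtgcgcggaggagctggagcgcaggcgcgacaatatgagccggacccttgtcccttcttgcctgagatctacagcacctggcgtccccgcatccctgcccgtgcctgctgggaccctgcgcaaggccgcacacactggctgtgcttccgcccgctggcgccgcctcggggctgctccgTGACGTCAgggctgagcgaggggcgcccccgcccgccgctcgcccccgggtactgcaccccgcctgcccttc
Chga, chr12:102554691-102554940, plus strand: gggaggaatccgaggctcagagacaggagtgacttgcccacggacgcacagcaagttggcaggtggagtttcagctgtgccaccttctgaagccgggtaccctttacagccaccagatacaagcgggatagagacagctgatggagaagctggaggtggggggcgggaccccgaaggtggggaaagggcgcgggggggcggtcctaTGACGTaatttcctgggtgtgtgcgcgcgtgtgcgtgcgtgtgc
Neurod1, chr2:79456637-79456886, minus strand: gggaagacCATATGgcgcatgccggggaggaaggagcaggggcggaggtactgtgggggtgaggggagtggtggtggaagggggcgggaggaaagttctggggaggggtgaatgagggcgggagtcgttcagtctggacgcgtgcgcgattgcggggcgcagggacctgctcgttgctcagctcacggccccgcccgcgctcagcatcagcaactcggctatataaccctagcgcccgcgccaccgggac

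The core TGACGT begins 72 bases before the start of Chgb, inside the full palindrome TGACGTCA, whose reverse strand also reads TGACGT. It begins 44 bases before the start of Chga. Over the 7 members with a window, 4 held TGACGT (Chga, Chgb, Pax6 and Isl1), against 6.47% of all 32851 mouse promoter windows of the same length. The member count is of genes, of which Pax6 has 2 windows, and the share is of windows. The motifs were chosen with the sequences in view, so that these counts are no test of enrichment. The palindrome was in Chgb and in 1 of the windows of Pax6, against 1.55% of all windows. Any E-box, CANNTG, is common, at 66.2% of windows. The form CATATG in the Neurod1 promoter, 242 bases before the start, is in 3.46%. A match is a description of the letters and not evidence of binding.

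The arrays carried the labelled epithelium. All 8 epithelial markers examined, among them Epcam, Cdh1 and Vil1, had group means above at least 91.6% of all genes in each genotype. Knockout arrays differed more among themselves than the others. The median SD of a gene was 0.14 in rescue, 0.23 in knockout and 0.10 in control arrays (log2). Transcripts used as markers of cells outside the epithelium were unequal between arrays. Whether they came from such cells or from the epithelial cells was not tested. For fibroblast markers the median deviation from the control mean was 4.11, 3.27 and 0.22 in knockout replicates 1, 2 and 3 (log2), and 3 of 13 passed the test described below, all higher in knockout than in control. Of 9 smooth muscle genes 0 passed in limma's test, with a median change of 1.77, and the nearest was Myh11 (limma adjusted p = 0.052). Of the 8 epithelial genes 4 were higher and 1 was lower in knockout, among them Krt8 (0.68), Krt19 (1.65) and Cdx2 (-0.74), with a median of 0.38. Over all genes 5.29% were called higher and 8.77% lower between knockout and control. The rescue arrays differed from all others in sex-specific transcripts: Xist averaged 6.67 in rescue, 12.47 in knockout and 12.18 in control arrays, so that sex and genotype cannot be told apart in comparisons with rescue. Of 3 single-symbol probe sets of Tfrc, the gene of Tfr1, 2 were called higher in rescue than in knockout, with no overlap of the arrays, and 0 were called between knockout and control. Where these probe sets lie relative to the deleted part of Tfrc was not analysed here, so that they do not check the knockout labels.

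Knockout and control arrays were compared for the effect of losing epithelial Tfr1 at birth. Chgb was the member that rose, by 1.92-fold. Chga, Neurod1 and Isl1 also read higher in every knockout array than in every control array but did not pass the test over all genes. Neurog3 and Nkx2-2 were raised in some knockout arrays and not in others. In their brightest probe sets Pax4, Pax6 and Insm1 had mean differences of 0.22 or less in size (log2). A gene passed where limma's two-sided p, adjusted by the method of Benjamini and Hochberg over all 18193 genes, was under 0.05. By that rule 1 of 9 members was higher and 0 lower, against 14.1% of all genes called in this comparison, 5.29% higher and 8.77% lower. The share of members called was thus near that of all genes. Bulk RNA cannot tell more or fewer endocrine cells from more or less transcript per cell. At an unadjusted p under 0.05 the count was 4 of 9, against 30.1% of all genes. The median log2 change of the members was 0.55, against -0.04 over all genes.

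**Figure D1:**
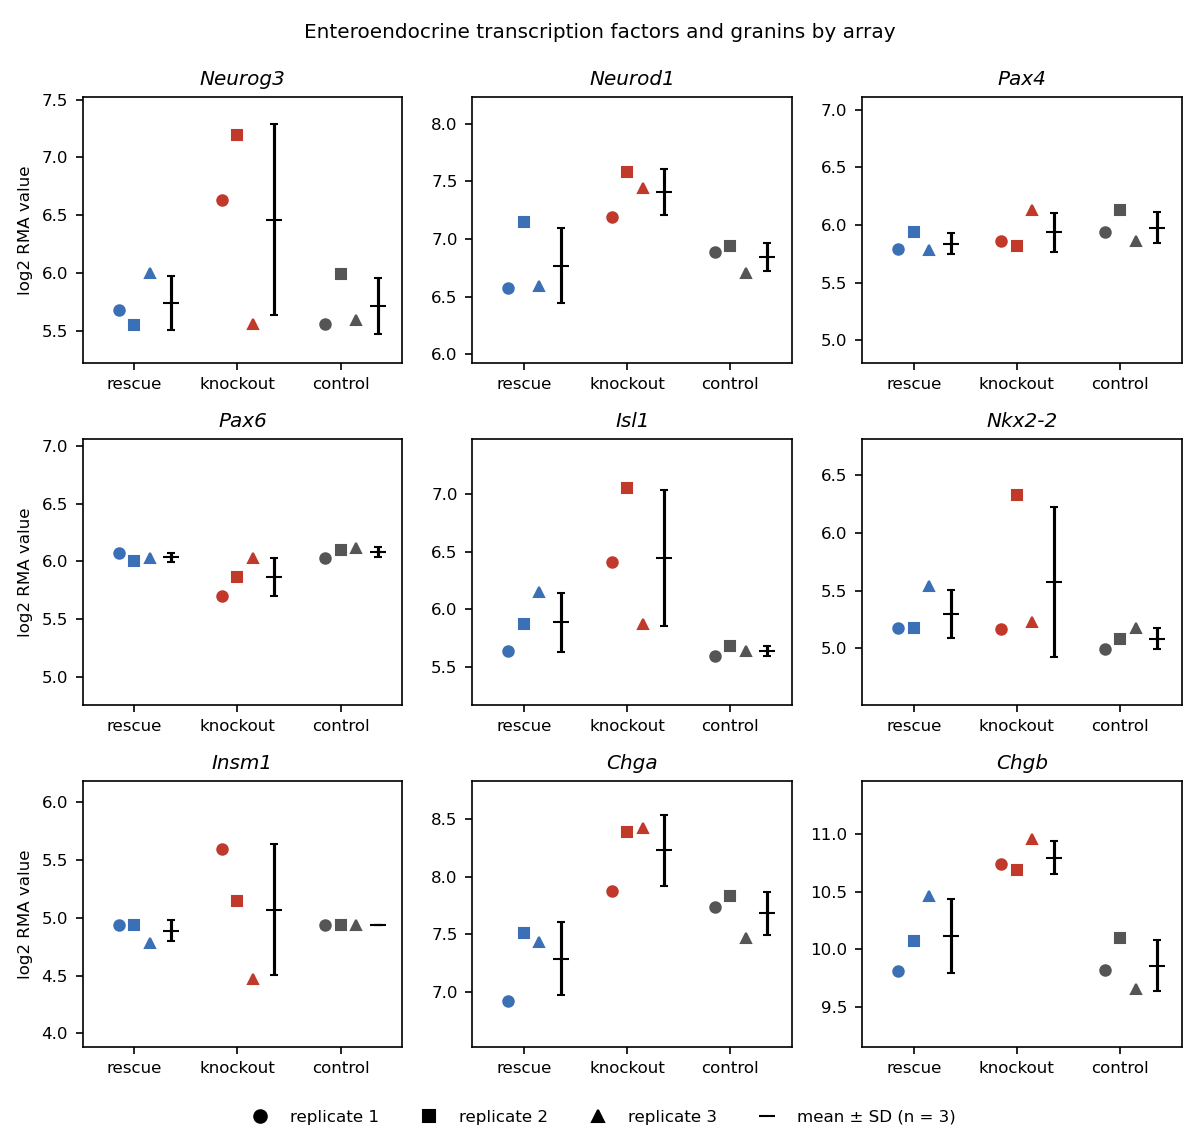
Log2 RMA values (vertical axis, each panel spanning the same number of log2 units) of the 9 genes in 3 rescue, 3 knockout and 3 control arrays; symbols mark the replicate number, and bars the mean ± SD of a group (n = 3). Chgb, Chga, Neurod1 and Isl1 lie higher in all 3 knockout arrays than in the control arrays, and Neurog3, Neurod1, Isl1 and Nkx2-2 reach their highest value in knockout replicate 2.

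Chgb, the more strongly changed of the granins, read 10.74, 10.69 and 10.95 in knockout replicates 1, 2 and 3, against 9.82, 10.09 and 9.65 in control replicates 1, 2 and 3 (log2 values). The groups did not overlap, and the knockout arrays lay close together. Its log2 change was 0.94 ± 0.18 (SE, n = 3 arrays per group, limma adjusted p = 0.013), with a 95% confidence interval of 0.53 to 1.35. The call was lost without control replicate 1 (limma adjusted p = 0.052) or control replicate 3 (limma adjusted p = 0.060), where the changes were 0.92 and 0.84. In a fit that kept only replicate 3 of the knockout, the array of that group lowest in fibroblast markers, the change of Chgb was 1.10. Such a fit takes its spread from the rescue and control arrays, so that only the change is given.

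Chga read 7.87, 8.39 and 8.42 in knockout arrays, against 7.74, 7.84 and 7.47 in control arrays. Knockout replicate 1 lay only just above the highest control array. The log2 change was 0.55 ± 0.20 (SE, n = 3 per group), or 1.46-fold, with a limma adjusted p of 0.11. None of the 9 fits that left out 1 array called it (limma adjusted p of 0.058 to 0.30).

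Neurod1, the helix-loop-helix factor that follows Neurog3, read 7.19, 7.58 and 7.44 in knockout arrays, against 6.89, 6.94 and 6.71 in control arrays. All knockout arrays were above all control arrays. Its change of 0.56 ± 0.17 (log2, SE, n = 3 per group, limma adjusted p = 0.067) was matched by its second probe set, at 0.55 ± 0.21 (limma adjusted p over all probe sets = 0.13). Among the 9 fits that left out 1 array it passed in 1, that without rescue replicate 2 (limma adjusted p = 0.034).

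Neurog3, the commitment factor, had a different pattern. It read 6.63, 7.19 and 5.56 in knockout replicates 1, 2 and 3, against 5.56, 5.99 and 5.59 in control arrays. Knockout replicates 1 and 2 stood above every control array, while replicate 3 was as low as the lowest control array. The mean change was 0.75 ± 0.36 (log2, SE, n = 3 per group, limma adjusted p = 0.21). Without knockout replicate 3 it was 1.2 and passed (limma adjusted p = 0.0053), and with only replicate 3 kept in the knockout group it was -0.16. A second, dimmer probe set of Neurog3 read between 3.65 and 3.97 on all 9 arrays, at or below its control mean in each knockout array, and changed by -0.07 ± 0.10.

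Isl1, a LIM homeodomain factor of several endocrine lineages, read 6.41, 7.05 and 5.87 in knockout arrays, against 5.59, 5.68 and 5.64 in control arrays. The groups did not overlap, but the knockout arrays ranged over more than a log2 unit. Its change was 0.81 ± 0.26 (log2, SE, n = 3 per group, limma adjusted p = 0.079), and 1.09 without knockout replicate 3 (limma adjusted p = 0.0062). Its second probe set changed by 0.35 ± 0.16, with overlapping groups.

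Nkx2-2, a homeodomain factor of the endocrine lineage, stood out in 1 array. It read 5.17, 6.33 and 5.23 in knockout arrays, against 5.0, 5.08 and 5.18 in control arrays. Without knockout replicate 2 the change was 0.12, against 0.49 ± 0.28 with all arrays (log2, SE, n = 3 per group, limma adjusted p = 0.29).

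Insm1, a zinc finger factor that acts below Neurog3, read 5.60, 5.15 and 4.47 in knockout arrays, against 4.94 in each control array. The knockout arrays lay on both sides of control, and the mean change was 0.13 ± 0.24 (log2, SE, n = 3 per group, limma adjusted p = 0.77). The direction thus depended on the arrays: without knockout replicate 3 Insm1 was higher by 0.43 (limma adjusted p = 0.047), and with that array alone lower, at -0.47. Insm1 is dim and its control values were nearly equal (SD 0.0021), so that this p-value may rest on too small a spread. Its second probe set read 5.57, 5.19 and 4.56 in knockout arrays, against 4.05, 4.70 and 4.66 in control arrays. That probe set changed by 0.64 ± 0.26, more than the first, with overlapping groups (limma adjusted p over all probe sets = 0.15). Both probe sets therefore put the 3 knockout arrays in the same order.

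The paired-box genes Pax4 and Pax6, which specify subtypes of endocrine cells, had knockout means below control. Pax4 read 5.86, 5.82 and 6.13 in knockout arrays, against 5.94, 6.13 and 5.86 in control arrays, and the groups overlapped fully. Its change was -0.04 ± 0.12, with a 95% confidence interval of -0.31 to 0.23 (log2). Pax6 read 5.70, 5.86 and 6.03 in knockout arrays, against 6.03, 6.10 and 6.12 in control arrays. It was the member whose knockout arrays all lay below control, by -0.22 ± 0.10 (log2, SE, n = 3 per group, limma adjusted p = 0.19). Knockout replicate 3, at 6.032, lay only just below control replicate 1, at 6.034. Of the other 4 probe sets of Pax6, 1 changed by -0.28 ± 0.12 with no overlap, and 3 by 0.02 to 0.13.

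In all, 4 members were higher and 1 lower without overlap between knockout and control arrays, against 32.4% of all genes without overlap, 12.7% higher and 19.7% lower. For 6 of the 9 members (Neurog3, Pax4, Pax6, Isl1, Nkx2-2 and Insm1) the control mean was in the dimmest 40% of genes, where array background flattens a change. The remaining 3, Chgb, Chga and Neurod1, were brighter in every genotype. Repeated values also mark the dim genes: Insm1 took only 6 different values on the 9 arrays and Pax4 and Nkx2-2 took 7.

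**Figure D2:**
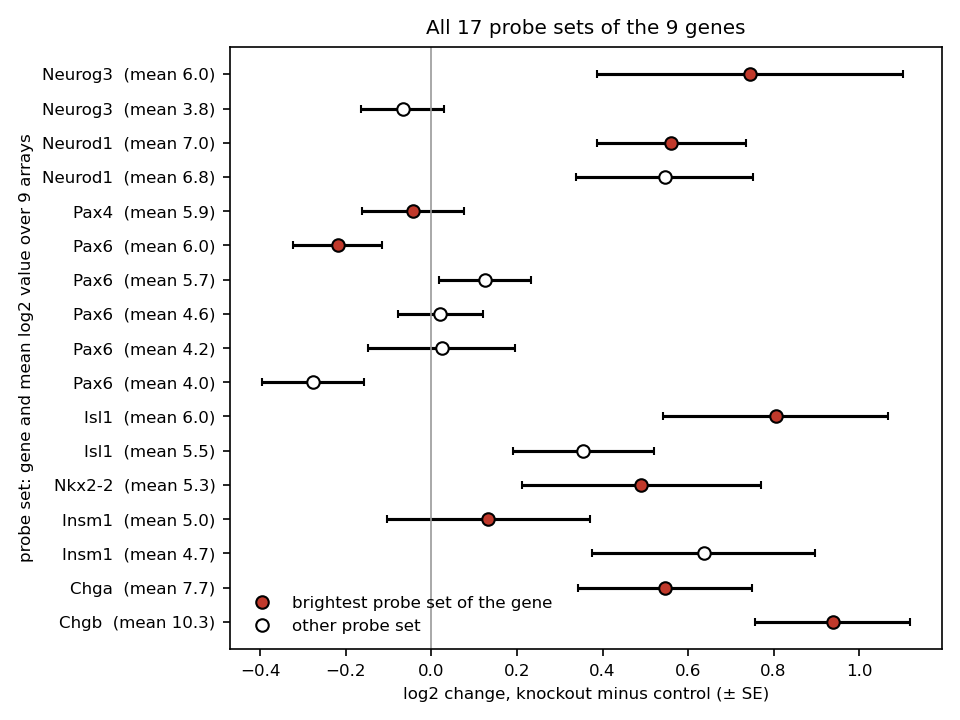
Log2 change between knockout and control (horizontal axis, ± SE, n = 3 arrays per group) of the 17 probe sets of the 9 genes, with the mean log2 value over 9 arrays beside each name; red marks the brightest probe set of a gene. Both probe sets of Neurod1 lie near 0.55, whereas those of Neurog3 lie at 0.75 and -0.07.

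Marker genes of other cells moved with some of these values. The islet genes Ins2 (insulin) and Iapp (islet amyloid polypeptide) read highest in knockout replicates 2 and 1 and in rescue replicate 3. Ins2 read 7.43, 7.15 and 9.00 in rescue replicates 1, 2 and 3, and 10.87, 11.86 and 7.26 in knockout replicates 1, 2 and 3, against 7.46, 7.57 and 7.57 in control arrays. Among the members, Neurog3, Neurod1, Isl1 and Nkx2-2 were highest in knockout replicate 2 as well. Within the rescue arrays Neurog3, Isl1, Nkx2-2 and Chgb were highest in replicate 3. The median of 6 islet genes lay -0.17, -0.20 and 0.35 from its control mean in rescue replicates 1, 2 and 3, and 0.61, 1.4 and -0.02 from it in knockout replicates 1, 2 and 3 (log2). Their mean level was 5.33 to 6.06 in rescue, 5.58 to 7.51 in knockout and 5.54 to 5.56 in control arrays, and 0 of the 6 passed limma's test between knockout and control (Iapp, limma adjusted p = 0.064, was nearest). For 8 exocrine pancreas genes the median deviation was -0.08, -0.02 and 1.93 in rescue arrays and 0.18, 2.33 and 0.38 in knockout arrays. Their mean level was 5.70 to 7.79 in rescue, 6.22 to 8.17 in knockout and 6.01 to 6.28 in control arrays, and 0 of 8 passed.

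Neurons also use Isl1, Insm1 and the granins. Over 12 neuron and glia genes the median deviation from control was between -0.04 and 0.25 in rescue arrays and was 2.27, 1.0 and 0.16 in knockout replicates 1, 2 and 3 (log2). Their mean level was 5.66 to 5.99 in rescue, 5.91 to 7.69 in knockout and 5.63 to 5.71 in control arrays. Between knockout and control 2 of 12 passed, Snap25 and Ret, both higher, while S100b, Hand2 and Prph had knockout means below control. In knockout replicate 3, Chgb, Chga and Neurod1 lay 1.10, 0.74 and 0.60 above their control means (log2). In that array Ins2 was below every control array, while Iapp read 7.91, against 7.29, 7.67 and 7.27 in control arrays, and the exocrine gene Cela2a read 7.09, against 5.87, 5.33 and 5.56 in control arrays. The neuronal gene Snap25 read 4.94 there, against 3.66, 4.11 and 4.14 in control arrays, and Ret read 9.05, against 8.0, 8.24 and 8.21. Of the other neuron and glia genes, Tubb3, Stmn2 and Sox10 also lay above every control array there. Elavl3, Elavl4, Uchl1, Hand2, S100b and Fabp7 lay within the control range, and Prph just below it. The part of RNA from these cells in the members' values was not tested.

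**Figure D3:**
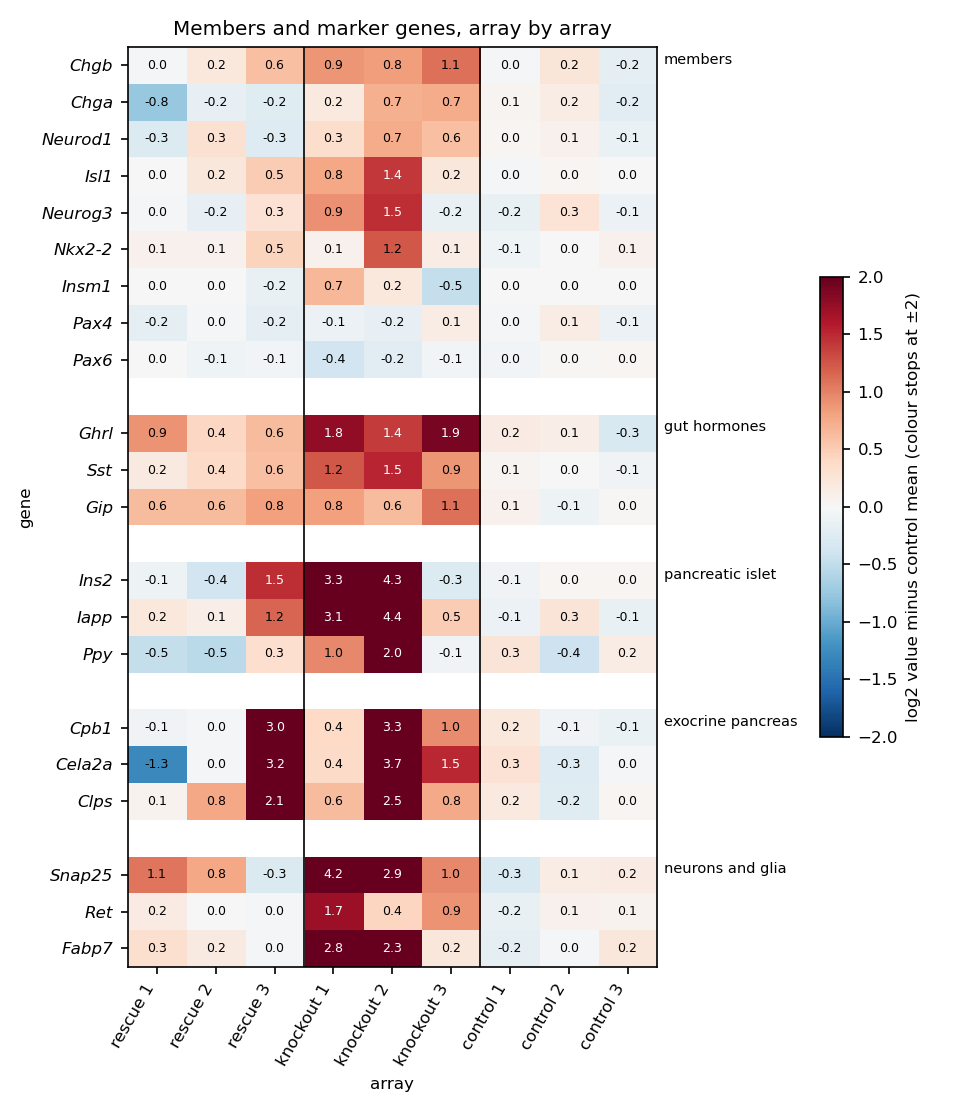
Log2 value minus the control mean (colour and printed numbers) of the 9 members and of named hormone, islet, exocrine pancreas and neuron genes (rows) on each of the 9 arrays (columns, rescue, knockout and control from left to right). Neurog3, Neurod1, Isl1 and Nkx2-2 are highest in knockout replicate 2, the array highest in Ins2, and Chgb and Chga are highest in knockout replicate 3, where Ins2 is below control and Cela2a, Snap25 and Ret are above it.

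Rescue was compared with knockout to see how transcripts of cells without the normal receptor move when Tfr1 R654A is added. No member passed in limma's test (0 of 9), against 2.31% of all genes called, 1.23% higher and 1.08% lower. At an unadjusted p under 0.05 the count was 3 of 9, against 18.9% of all genes. Chga, Chgb and Neurod1 read lower in every rescue array than in every knockout array, which makes 3 of 9 members without overlap, against 18.1% of all genes, 10.6% higher and 7.5% lower. The median log2 change of the members was -0.56, against 0.04 over all genes. This comparison shares its knockout arrays with the one above, so that opposite changes in the 2 are linked by design.

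Chga read 6.93, 7.51 and 7.43 in rescue arrays, against 7.87, 8.39 and 8.42 in knockout arrays. The highest rescue array was below the lowest knockout array. The log2 change was -0.94 ± 0.20 (SE, n = 3 per group, limma adjusted p = 0.056), with a 95% confidence interval of -1.40 to -0.47. Among the 9 fits that left out 1 array it passed in 2, those without knockout replicate 1, at -1.12 (limma adjusted p = 0.047), and without knockout replicate 3, at -0.84 (limma adjusted p = 0.039).

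Chgb read 9.82, 10.07 and 10.46 in rescue arrays, against 10.74, 10.69 and 10.95 in knockout arrays. The groups did not overlap, with rescue replicate 3 close to the knockout arrays. Its change was -0.68 ± 0.18 (log2, SE, n = 3 per group, limma adjusted p = 0.098). Neurod1 read 6.57, 7.15 and 6.59 in rescue arrays, against 7.19, 7.58 and 7.44 in knockout arrays. Rescue replicate 2 approached the lowest knockout array, and the change was -0.64 ± 0.17 (limma adjusted p = 0.11). The other probe set of Neurod1 put rescue replicate 2 at 7.06, inside the knockout range.

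The other 6 members overlapped between rescue and knockout. Neurog3 read 5.68, 5.55 and 6.0 in rescue arrays, and its change of -0.72 ± 0.36 (limma adjusted p = 0.32) rested on knockout replicates 1 and 2. Without knockout replicate 3 it was -1.17 (limma adjusted p = 0.010), and with that replicate alone in the knockout group it was 0.18. Isl1 read 5.63, 5.87 and 6.15 in rescue arrays, for a change of -0.56 ± 0.26 (limma adjusted p = 0.29). It passed without knockout replicate 3, at -0.85 (limma adjusted p = 0.029), as did Insm1, at -0.48 (limma adjusted p = 0.049). Nkx2-2, Insm1, Pax4 and Pax6 changed by -0.28, -0.18, -0.10 and 0.17 over all arrays, with limma adjusted p between 0.41 and 0.74.

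**Figure D4:**
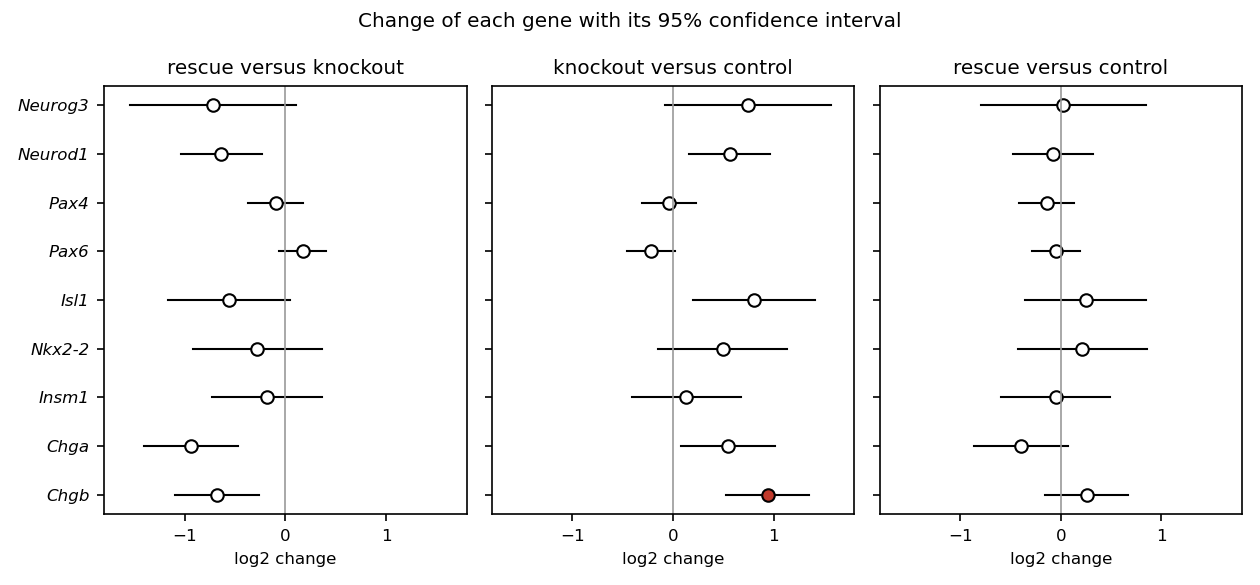
Log2 change (point) and 95% confidence interval (line) of each gene, for rescue minus knockout, knockout minus control and rescue minus control; the filled point passed limma's test over all genes. Chgb between knockout and control is the filled point, and its interval runs from 0.53 to 1.35.

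Rescue and control were compared to see what remains when the R654A receptor is present. No member passed in limma's test (0 of 9), against 0.126% of all genes called, 0.055% higher and 0.0715% lower. At an unadjusted p under 0.05 the count was 0 of 9, against 6.62% of all genes. The groups overlapped for all 9 members, against 16.6% of all genes without overlap, 6.74% higher and 9.9% lower. This comparison shares its arrays with both others. The widest difference was that of Chga, which averaged 7.29 ± 0.32 in rescue arrays and 7.68 ± 0.19 in control arrays (log2, SD, n = 3 each). Its change of -0.39 ± 0.20 (SE, limma adjusted p = 0.88) had a 95% confidence interval of -0.86 to 0.07. Chgb averaged 10.12 ± 0.32 in rescue arrays and 9.86 ± 0.22 in control arrays, a change of 0.26 ± 0.18 with an interval of -0.15 to 0.67 (limma adjusted p = 0.99). The chromogranins thus had mean changes of opposite sign, neither past the test. For Neurod1 the interval was -0.47 to 0.32 and for Neurog3 -0.80 to 0.85, so that a difference of the size seen for Neurog3 between knockout and control was not detectable with 3 arrays per group.

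Other genes of enteroendocrine cells were listed with the members and give their surroundings. Of 12 hormone genes 6 rose between knockout and control and 0 fell, against 5.29% of all genes called higher and 8.77% lower. The median log2 change of the 12 was 1.0. Ghrl, which encodes ghrelin, rose by 1.69 ± 0.19 (3.23-fold, limma adjusted p = 0.0015), and Sst (somatostatin) by 1.21 ± 0.17 (2.32-fold, limma adjusted p = 0.0038). Gip, the hormone gene of K cells, rose by 0.85 ± 0.13 (limma adjusted p = 0.0057). Sst read 8.67, 8.87 and 9.10 in rescue replicates 1, 2 and 3, and 9.73, 10.02 and 9.37 in knockout replicates 1, 2 and 3. In both groups its highest array was that of Ins2. Among the knockout arrays Ghrl and Gip were highest in replicate 3, at 9.40 and 11.90. The part of islet RNA in the hormone values was not tested. Between rescue and knockout 2 of the 12 fell, Ghrl and Sst, with changes of -1.04 and -0.83, against 1.08% of all genes called lower. Between rescue and control 0 of the 12 passed in limma's test, against 0.126% of all genes, but their median log2 change was 0.45. Gip, Ghrl and Sst averaged 0.70, 0.64 and 0.39 above control, each without overlap of the arrays. Over all genes 6.74% were higher without overlap in that comparison. Pyy was the hormone gene with a rescue mean below control, at -0.05. Gip had changed by -0.15 between rescue and knockout. With replicate 3 alone in the knockout group the median log2 change of the 12 between knockout and control was 1.16. When each array was left out in turn the count higher in knockout ranged from 4 to 8, lowest without control replicate 3. The 2 calls between rescue and knockout were less stable, at 0 to 5 genes lower, with 0 without control replicate 1 or 2, knockout replicate 1 or rescue replicate 2 or 3, and 5 without knockout replicate 3.

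Over 15 genes of the secretory granule and of prohormone processing the median change between knockout and control was 0.75. Of these, 5 rose and 0 fell, against 5.29% of all genes called higher and 8.77% lower. The 5 were Cpe, Scg5, Scg2, Scg3 and Ptprn2, of which Scg3 and Ptprn2 are named after their values were seen. Cpe encodes carboxypeptidase E, which trims peptide hormones, and read 12.16, 11.99 and 12.49 in knockout arrays, against 8.44, 8.60 and 8.37 in control arrays. Its change was 3.74 ± 0.25 (13.4-fold, limma adjusted p = 2.5e-04). The granin gene Scg2 rose by 1.88 ± 0.30 (3.69-fold, limma adjusted p = 0.0058), and Scg5, which encodes the helper protein of a prohormone convertase, at least 4.19-fold (limma adjusted p = 0.0042), since its control mean is among the dimmest 40% of genes. Between rescue and knockout Cpe fell by 1.99 ± 0.25 (limma adjusted p = 0.0091). Scg5, whose rescue mean is also among the dimmest 40%, fell at least 2.82-fold (limma adjusted p = 0.044), with an interval of -2.18 to -0.81 (log2). Between rescue and control 0 of the 15 passed, against 0.126% of all genes, with a median log2 change of 0.20. Cpe was still 1.76 ± 0.25 above control in rescue (limma adjusted p = 0.056), with no overlap of the arrays. Ptprn2 changed by 0.02 between rescue and knockout and by 0.76 between rescue and control. Scg2 read 9.14, 8.41 and 7.95 and Scg5 read 7.4, 6.28 and 6.01 in knockout replicates 1, 2 and 3. That is the order of the neuron and glia median in these arrays (2.27, 1.0 and 0.16 above control). The fibroblast median (4.11, 3.27 and 0.22) and the smooth muscle median (3.28, 1.69 and 0.15) have the same order. So has the median deviation of the granule list (1.04, 0.63 and 0.34), which holds Scg2 and Scg5. The part of RNA from any of these cells in the values was not tested. With replicate 3 alone in the knockout group the median change of the 15 genes was 0.34. The count higher in knockout ranged from 3 to 9 when each array was left out in turn. It was 3 without any 1 of the control arrays and 9 without knockout replicate 3. Between rescue and knockout the count lower ranged from 1 to 7, the highest again without knockout replicate 3.

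Of 12 further transcription factors of the lineage 3 rose between knockout and control and 0 fell, against 5.29% of all genes called higher and 8.77% lower. Their median change was 0.29. Hhex, a homeodomain factor, rose at least 3.17-fold (limma adjusted p = 0.030), Myt1, a zinc finger factor, at least 1.32-fold (limma adjusted p = 0.034), and Foxa1, a forkhead factor, 1.92-fold (limma adjusted p = 0.047). Each of these 3 was highest in knockout replicate 1 and lowest, among the knockout arrays, in replicate 3. With replicate 3 alone in the knockout group the median change of the 12 was 0.27. When each array was left out in turn, the count higher in knockout was 5 without knockout replicate 3. It was 0 without any 1 of the control arrays, knockout replicate 1 or 2 or rescue replicate 2. Between rescue and knockout 0 of 12 passed in limma's test, against 2.31% of all genes, and 4 passed without knockout replicate 3. Upstream of the members, 1 of 11 genes of Notch signalling and secretory fate rose and 1 fell between knockout and control, against the same shares of all genes. The receptor gene Notch2 rose by 1.16 ± 0.19 (limma adjusted p = 0.0062), and between rescue and knockout it fell by 1.05 ± 0.19 (limma adjusted p = 0.031). Hes6, a helix-loop-helix gene, fell by 0.63 ± 0.09 between knockout and control (limma adjusted p = 0.0041). Hes1, the Notch target that represses Neurog3, changed by -0.58 ± 0.21 (limma adjusted p = 0.10), with all knockout arrays below all control arrays.

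**Figure D5:**
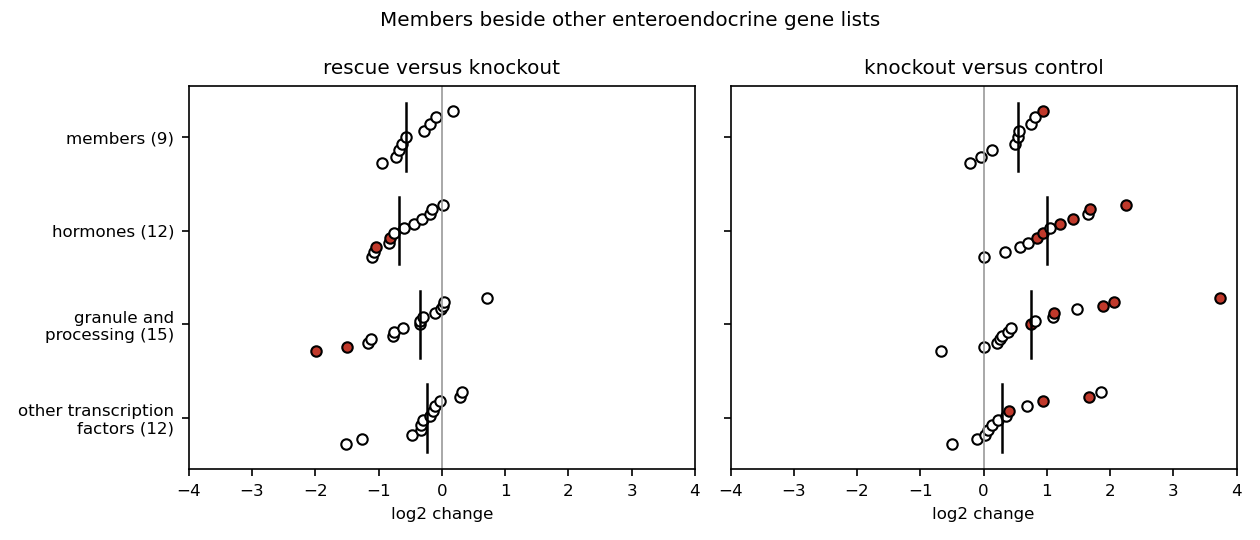
Log2 change (horizontal axis) of each gene of 4 lists, for rescue minus knockout and for knockout minus control; filled points passed limma's test over all genes and vertical lines are list medians. Between knockout and control 1 of 9 members, 6 of 12 hormone genes, 5 of 15 granule and processing genes and 3 of 12 other transcription factors are filled. Over all genes 5.29% were called higher and 8.77% lower in that comparison.

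Genes with a pattern like that of the members were found by correlating each gene with the mean of the 9 members, each scaled to mean 0 and SD 1 over the arrays. The 5 most alike were Kank3, Abcc3, Syt13, Fpr2 and Ces2g, with Pearson's r of 0.95, 0.94, 0.93, 0.93 and 0.93 over 9 arrays, given as a description of likeness and not as a test. The member mean was highest in knockout replicate 2, at 1.06, and lowest in rescue replicate 1, at -0.66. It averages unlike patterns: between single members r ran from -0.77 (Pax6 and Insm1) to 0.93 (Neurog3 and Isl1). Syt13, a synaptotagmin, read 6.18, 6.69 and 6.13 in knockout arrays, against 5.75, 5.60 and 5.61 in control arrays.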

How the data were processed

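The authors deposited log2 values, 1 per probe set on each array, and the submitters' processing notes name RMA and Partek 6.5 without the role of each. They were used as deposited. Array number, not depth, sets the precision. Among 34945 probe sets annotated with 1 symbol, the brightest stood for each of 18193 genes, and limma 3.58.1 in R 4.3.3 fitted 3 group means over the 9 arrays (lmFit, eBayes), with two-sided tests and Benjamini-Hochberg adjustment across genes. The fit was tested on simulated data. The members, lists and tests were chosen with earlier results of these data known, and the promoter motifs with the sequences in view. The text names all members, up to 3 genes of a list by smallest p between knockout and control, and the 5 genes most alike in pattern. Of 117 other listed genes 106 were measured. "At least" stands before a fold whose lower group mean is among the dimmest 40% of genes. Such a fold is the estimate and not the lower end of its confidence interval, which can be smaller. Alternatives changed the probe set rule, scaling, filter, arrays fitted, weights, variance model and block. Deviations of same-numbered arrays correlated between -0.22 and 0.40, over 0.1 in 2 of 9 pairs, so the numbers were not taken to pair the arrays.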

Additional observations from a re-analysis of the deposited data

How the results depend on the processing

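Members called between knockout and control numbered 1, and the number was unchanged with the mean of a gene's probe sets, without probe sets ending in _s_at or _x_at, with every probe set tested, with quantile normalization, without the dimmest 40% of genes, with only the 6 arrays compared, and with an intensity trend. Estimated array weights gave 7 (6 higher and 1 lower) between knockout and control and 4 lower between rescue and knockout. Those weights were 2.14 for knockout replicate 2 and 0.427 and 0.166 for knockout replicates 1 and 3, so that replicate 2 carried most of the group. With the replicate number as a block 2 were called between knockout and control (Chgb and Neurod1, limma adjusted p = 0.043 for Neurod1) and 0 between rescue and knockout. Leaving out each array in turn gave 0 to 5 between knockout and control (0 without control replicate 1 or 3, 5 without knockout replicate 3), 0 to 4 between rescue and knockout (1 without knockout replicate 1, 4 without knockout replicate 3) and 0 between rescue and control. With knockout replicate 3 alone in its group, the change between knockout and control was 1.10 for Chgb and -0.47 for Insm1. That fit assumes that the array varies like the other groups' arrays. Without the dimmest 40% of genes, which keeps 3 members, 1 was called between rescue and knockout (Chga).

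Over all genes 2559 were called between knockout and control, against 6395 with array weights, 1655 with only the 6 arrays compared and 936 to 4998 with each array left out. Between rescue and knockout 420 were called, against 2453 with array weights, 30 with only the 6 arrays, 257 with the block and 105 to 2793 with each array left out. Between rescue and control 23 were called, against 355 with array weights, 149 with only the 6 arrays, 12 with the block, 14 with an intensity trend, 42 over every probe set, 15 after quantile normalization and 2 to 136 with each array left out.

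Signs turned for small or uneven changes, and the cause was not tested. With knockout replicate 3 alone, the change between knockout and control was -0.16 for Neurog3, 0.15 for Pax4 and -0.47 for Insm1, and between rescue and knockout 0.18 for Neurog3, 0.011 for Isl1, 0.066 for Nkx2-2 and 0.42 for Insm1. Array weights gave 0.011 for Pax4 between rescue and knockout and 0.032 for Neurod1 between rescue and control. The mean over probe sets gave 0.031 for Neurod1, 0.025 for Pax6 and 0.062 for Insm1 between rescue and control. With each array left out, changes between knockout and control ranged from -0.14 to 0.032 for Pax4 and from -0.13 to 0.43 for Insm1, and between rescue and knockout from -0.48 to 0.10 for Nkx2-2 and from -0.48 to 0.079 for Insm1. Between rescue and control they ranged from -0.10 to 0.16 for Neurog3, from -0.26 to 0.024 for Neurod1 and from -0.077 to 0.0012 for Insm1. An alternative added after the data were seen left out knockout replicate 2 and rescue replicate 3, the arrays highest in the exocrine pancreas genes. It called 1 member between knockout and control (Chgb, 0.99, limma adjusted p = 0.020), 0 between rescue and knockout and 0 between rescue and control, and over all genes 1736, 54 and 7. It turned Pax4 to 0.017 between knockout and control, and Neurog3 to -0.10, Neurod1 to 0.015 and Insm1 to 0.0012 between rescue and control.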
